A study of Mus musculus with 6 samples.

Results

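The dual-specificity MAP kinase phosphatases are the enzymes that switch MAP kinases off. They were taken as the genes of the deposited table named Dusp1, Dusp2, Dusp4, Dusp5, Dusp6, Dusp7, Dusp8, Dusp10 and Dusp16, and all 9 were found among its 55385 genes. Their transcripts were measured by sequencing of poly(A) RNA from whole livers of C57BL/6 mice aged 6 weeks. The first group was Optn-/- mice given 500 mg/kg acetaminophen (2 mice, replicates 4 and 5). The second was wild-type (WT) mice given the same dose (2 mice, replicates 1 and 4), and the third was WT controls given 200 µL of phosphate-buffered saline (2 mice, replicates 3 and 6). All injections were intraperitoneal, all livers were collected 6 h later, and Optn-/- mice without acetaminophen were not analysed here. Optn encodes optineurin, a receptor that brings damaged mitochondria and other cargo to autophagosomes. How the allele was made, and whether all cells carry it, is not given in the sources used here.

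MAP kinases (ERK, JNK and p38) are activated when a MAP kinase kinase phosphorylates a threonine and a tyrosine in their activation loop, and these phosphatases remove both phosphates. Several of their genes are switched on by the same kinases that the proteins inactivate, so that the family works as a negative feedback. In acetaminophen overdose, sustained activation of JNK in hepatocytes is a well-known part of the injury. The members are described below in 3 groups by where they act and what they prefer: the nuclear inducible enzymes Dusp1, Dusp2, Dusp4 and Dusp5, the cytoplasmic ERK-directed Dusp6 and Dusp7, and Dusp8, Dusp10 and Dusp16, which act on JNK and p38.

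Promoter sequence is shown for Dusp1, Dusp5 and Dusp8 because these members rose strongly in treated livers and their promoters held motifs that stress and growth signals are known to use. Each line gives the bases just upstream of the RefSeq start site (GRCm38.p6), 5′ to 3′ on the strand of the gene, with bases that belong to an exon of the gene left out. Capitals mark cyclic AMP response elements and their half-sites, and in Dusp5 also serum response (CArG) boxes. The stretches lie at chr17:26508520-26508722 (minus strand, Dusp1), chr19:53528895-53529108 (plus strand, Dusp5) and chr7:142095285-142095534 (minus strand, Dusp8).
Dusp1: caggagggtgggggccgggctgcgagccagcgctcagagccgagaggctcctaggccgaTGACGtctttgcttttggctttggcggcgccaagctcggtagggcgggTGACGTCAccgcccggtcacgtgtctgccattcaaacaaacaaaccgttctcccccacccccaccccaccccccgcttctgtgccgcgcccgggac
Dusp5: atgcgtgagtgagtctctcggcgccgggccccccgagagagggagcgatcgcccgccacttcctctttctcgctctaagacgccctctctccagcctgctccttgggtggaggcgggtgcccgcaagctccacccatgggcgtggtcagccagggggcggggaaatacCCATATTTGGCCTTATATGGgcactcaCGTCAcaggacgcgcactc
Dusp8: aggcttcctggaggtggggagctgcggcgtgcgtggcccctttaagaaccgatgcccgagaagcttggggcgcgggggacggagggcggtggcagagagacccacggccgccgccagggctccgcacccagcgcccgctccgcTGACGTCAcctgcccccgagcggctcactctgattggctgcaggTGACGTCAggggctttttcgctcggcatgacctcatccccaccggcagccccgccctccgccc

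The 250 bases before the start were searched on both strands for 5 motifs. The cyclic AMP response element was read as TGACGTCA. Its half-site was read as TGACG, which also lies inside every full element. The AP-1 site was read as TGANTCA and the TATA box as TATAAA, and the CArG box was the fifth motif. Dusp8 held the full cyclic AMP response element at 2 positions, -107 to -100 and -63 to -56 from the start. Dusp1 held 1 full element (-143 to -136) and a separate half-site (-191 to -187). Among all 32851 promoters of the RefSeq table, 1.55% held at least 1 full element and 0.03% at least 2. Dusp5 held 2 adjoining CArG boxes (-82 to -73 and -72 to -63) and a half-site at -55 to -51. A CArG box was present in 1.47% of all promoters, and 2 or more in 0.02%. The half-site at -70 to -66 was the single match in Dusp16. None of the 5 motifs was found in these windows of Dusp2, Dusp6, Dusp7 and Dusp10, and of these Dusp2, Dusp6 and Dusp10 also rose in treated livers. Across all promoters, 17.77% held a half-site, 6.75% an AP-1 site and 12.37% a TATA box, and no member held either of the last 2. The table has an entry for 8 of the 9 members, and Dusp4 is the one without. These are matches of letters, binding was not measured, and the part of these motifs in the rise of any member was not tested.

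Total counts ran from 59.1 to 77.3 M (1e6) per library, and hepatocyte markers summed to 130621 to 171836 CPM (counts per M counts of the library), with 12 of 12 detected in every library. The genotype labels were checked on Optn in FPKM (fragments per kilobase of transcript and per M counted fragments). It had 0.316 and 0.457 FPKM in Optn-/- livers, against 9.17 and 9.19 FPKM in WT acetaminophen livers and 20.95 and 18.73 FPKM in WT controls. Traces of other tissues set libraries apart. Skeletal muscle markers (12 listed, 12 matched) summed to 65.4, 76.8 and 97.8 CPM in WT acetaminophen replicates 1 and 4 and WT control replicate 3, and to 0.957, 0.976 and 0.527 CPM in Optn-/- replicates 4 and 5 and WT control replicate 6. In the second set of 3 libraries intestine markers were higher, at 78.8, 97.0 and 80.6 CPM, against 34.6 to 52.4 CPM in the first. Each treated group therefore lay within 1 set, and only the controls were divided between both. WT acetaminophen replicate 4 stood apart again, with neuron markers at 123.8 CPM, against 6.55 to 13.7 CPM in the other 5 libraries.

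In wild-type liver, acetaminophen was accompanied by higher transcript levels of most of the members. Of the 9 members, 8 rose and Dusp7 did not pass the test (edgeR quasi-likelihood test, Benjamini-Hochberg adjusted p under 0.05 over 11677 genes), where 8.36% of all genes tested rose, 5.92% fell and 14.3% changed in either direction. The log2 fold changes of the 8 ran from 1.5 for Dusp16 to 5.11 for Dusp2, and the median over the 9 was 2.75, against 0.03 over all genes tested. All 9 passed the filter on low values, a mean of at least 0.5 FPKM over the 6 libraries. Dusp2, Dusp4, Dusp5 and Dusp8 averaged under 0.5 FPKM in the controls and passed through the treated groups. Their rise is therefore in part built into the filter, and the count over the 9 members is a description. On the log2(FPKM + 1) scale of the limma alternative, which understates low genes, the log2 fold changes of Dusp4, Dusp5 and Dusp8 were 1.68, 2.10 and 2.40. Because whole liver was sequenced, more RNA per cell and more cells of a type cannot be told apart. Whether groups overlap is given below for single members as a description. With 2 mice a group the smallest p of an exact permutation test is 0.333. The share of all genes with fully separate groups was not computed.

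**Figure D1:**
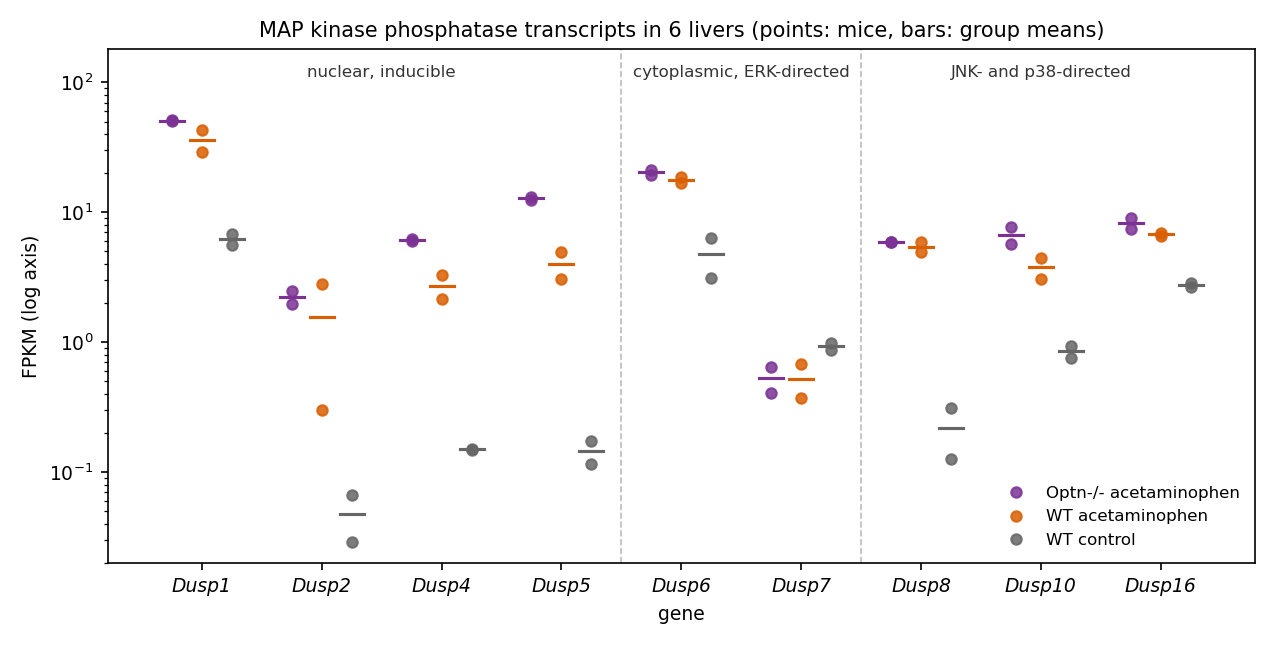
Level of each of the 9 phosphatases in FPKM (log axis) in Optn-/- acetaminophen, WT acetaminophen and WT control livers, from left to right within each gene. Points are single mice (2 per group), bars are group means, and dashed lines divide the 3 groups by role. Every treated liver lies above both controls for each gene except Dusp7, where the order is turned round. With 2 mice a group such separation is a weak criterion, and its share over all genes was not computed. For Dusp2, 1 WT acetaminophen liver lies far below the other treated livers.

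Among the nuclear enzymes, Dusp1 is a classic immediate early gene whose product acts on p38, JNK and ERK. It had 51.1 and 50.6 FPKM in Optn-/- acetaminophen livers, 29.1 and 43.1 FPKM in WT acetaminophen livers and 5.55 and 6.84 FPKM in WT controls. All 4 treated livers lay above both controls, and Dusp1 had the highest mean of the members in each group, overlapping Dusp6 in WT controls. Its log2 fold change between treated and control WT livers was 2.75 ± 0.21 (SE, edgeR adjusted p = 0.00250), a 6.71-fold rise.

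Dusp4, a nuclear enzyme for ERK and JNK, had few counts in controls. Its level was 6.06 and 6.18 FPKM in Optn-/- acetaminophen livers, 3.29 and 2.16 FPKM in WT acetaminophen livers and 0.148 and 0.150 FPKM in WT controls, the last on counts of 27 and 35. The 3 groups did not overlap, and treated WT livers were 20.6-fold above controls (log2 fold change 4.37 ± 0.30, edgeR adjusted p = 0.00191).

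Dusp5 encodes a nuclear enzyme that is specific for ERK, and its promoter is the one with adjoining CArG boxes shown above. It had 12.5 and 13.1 FPKM in Optn-/- acetaminophen livers, 3.04 and 4.93 FPKM in WT acetaminophen livers and 0.116 and 0.174 FPKM in WT controls (counts of 19 and 36). The groups were again fully separated, with a 30.8-fold difference between treated and control WT livers (log2 fold change 4.94 ± 0.32, edgeR adjusted p = 0.00173). In Optn-/- acetaminophen livers Dusp5 ranked 3 of 9 by level, and in WT controls it ranked 8 of 9.

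Dusp2, best known as a phosphatase of activated immune cells, had the least even values. It reached 1.97 and 2.50 FPKM in Optn-/- acetaminophen livers, 2.83 and 0.300 FPKM in WT acetaminophen livers and 0.0290 and 0.0668 FPKM in WT controls. In counts this was 332 and 341 in Optn-/- livers, 406 and 48 in WT acetaminophen livers and 4 and 12 in controls. WT acetaminophen replicate 4 was far below the other 3 treated livers and still above both controls. The log2 fold change in WT was 5.11 ± 1.17 (edgeR adjusted p = 0.0399), and this call rests on few counts and single libraries. Without WT acetaminophen replicate 1 the log2 fold change was 2.72, and the call was lost in 10 of 15 alternatives, with adjusted p of 0.0600 to 0.170 where it was lost.

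Neutrophil and red blood cell markers, like Dusp2, were lowest among treated livers in WT acetaminophen replicate 4. Monocyte and B cell markers were not. Neutrophil markers (11 listed) summed to 152.5 and 194.3 CPM in Optn-/- acetaminophen livers, 147.1 and 70.8 CPM in WT acetaminophen livers and 2.64 and 6.68 CPM in WT controls. Of the 8 neutrophil markers tested, 6 rose in treated WT livers, and Ly6g, Camp, Cxcr2, Mmp8 and Mpo were at 0 in control replicate 3, and Retnlg and Ltf in control replicate 6. Red blood cell markers (6 listed) summed to 8460 and 8927 CPM in Optn-/- acetaminophen livers, 9383 and 3962 CPM in WT acetaminophen livers and 699.8 and 1110 CPM in WT controls, and none was at 0. WT acetaminophen replicate 4 was the treated library with the lowest sums on both lists, and also on the lists for Kupffer cells, stellate cells, cholangiocytes, T and NK cells, platelets and intestine. Monocyte markers (8 listed) summed to 1832 and 1597 CPM in Optn-/- livers, 1477 and 1636 CPM in WT acetaminophen livers and 1158 and 1299 CPM in controls, with Vcan at 0 in control replicate 3. Of the 6 tested, 4 rose in WT, and log2 fold changes of the 6 ran from 0.48 to 5.42. The sum is led by the most abundant genes and is a poor guide to this list. The median over the 6 was 3.70, against 4.93 for the 8 neutrophil and 3.28 for the 5 red blood cell markers tested. The part of these cells in the levels of Dusp2 and of the other members was not tested.

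Of the cytoplasmic ERK-directed enzymes, Dusp6 rose and Dusp7 did not. Dusp6, a feedback inhibitor of ERK, had 19.5 and 21.1 FPKM in Optn-/- acetaminophen livers, 18.7 and 16.7 FPKM in WT acetaminophen livers and 6.37 and 3.15 FPKM in WT controls. The controls themselves were 2.02-fold apart, and all treated livers lay above both. The log2 fold change in WT was 2.10 ± 0.34 (edgeR adjusted p = 0.0159). It was 2.72 without WT control replicate 3 and 1.67 without WT control replicate 6, and without WT acetaminophen replicate 1 the call was lost (log2 fold change 1.99, adjusted p = 0.0595).

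Dusp7, the close relative of Dusp6, was the member with the lowest level in both treated groups. It had 0.649 and 0.409 FPKM in Optn-/- acetaminophen livers, 0.370 and 0.678 FPKM in WT acetaminophen livers and 0.874 and 0.986 FPKM in WT controls. Both controls lay above all 4 treated livers, but the difference was of the size of the spread between mice (log2 fold change in WT -0.62 ± 0.42, edgeR adjusted p = 0.366). In control livers Dusp7 ranked 4 of 9, with values that overlapped those of Dusp10.

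All 3 JNK- and p38-directed members rose. Dusp8, which prefers JNK and whose promoter holds the 2 cyclic AMP response elements shown above, had 5.93 and 5.91 FPKM in Optn-/- acetaminophen livers, 5.90 and 4.97 FPKM in WT acetaminophen livers and 0.309 and 0.126 FPKM in WT controls. Treated WT livers were 29.0-fold above controls (log2 fold change 4.86 ± 0.44, edgeR adjusted p = 0.00372), and the 4 treated livers were close together. With counts of 98 and 51, the 2 controls differed more between them than the treated livers did. The log2 fold change was 5.65 without WT control replicate 3 and 4.32 without WT control replicate 6.

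Dusp10, an enzyme for JNK and p38, had 7.66 and 5.73 FPKM in Optn-/- acetaminophen livers, 4.43 and 3.09 FPKM in WT acetaminophen livers and 0.942 and 0.753 FPKM in WT controls. The groups did not overlap, and the rise in WT was 5.14-fold (log2 fold change 2.36 ± 0.30, edgeR adjusted p = 0.00858). Dusp16, which prefers JNK, was already the third most abundant member in controls and had the smallest rise. Its levels were 7.50 and 9.06 FPKM in Optn-/- acetaminophen livers, 6.58 and 6.96 FPKM in WT acetaminophen livers and 2.88 and 2.65 FPKM in WT controls, a log2 fold change in WT of 1.5 ± 0.14 (edgeR adjusted p = 0.00386).

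The order of the levels in FPKM differed between the groups. In Optn-/- acetaminophen livers it was Dusp1, Dusp6, Dusp5, Dusp16, Dusp10, Dusp4, Dusp8, Dusp2 and Dusp7, where Dusp16 and Dusp10, and Dusp10 and Dusp4, overlapped. In WT acetaminophen livers it was Dusp1, Dusp6, Dusp16, Dusp8, Dusp5, Dusp10, Dusp4, Dusp2 and Dusp7, and neighbours from Dusp5 to Dusp7 overlapped. In WT controls it was Dusp1, Dusp6, Dusp16, Dusp7, Dusp10, Dusp8, Dusp4, Dusp5 and Dusp2, where Dusp1 and Dusp6, Dusp7 and Dusp10, Dusp8 and Dusp4, and Dusp4 and Dusp5 overlapped. Summed over the 9 members, FPKM came to 112.9 and 114.6 in Optn-/- acetaminophen livers, 74.2 and 82.9 in WT acetaminophen livers and 17.2 and 14.9 in WT controls. Dusp1 made up 45.3 and 44.2% of this sum in Optn-/- acetaminophen livers, 39.1 and 52.0% in WT acetaminophen livers and 32.2 and 45.9% in WT controls.

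**Figure D2:**
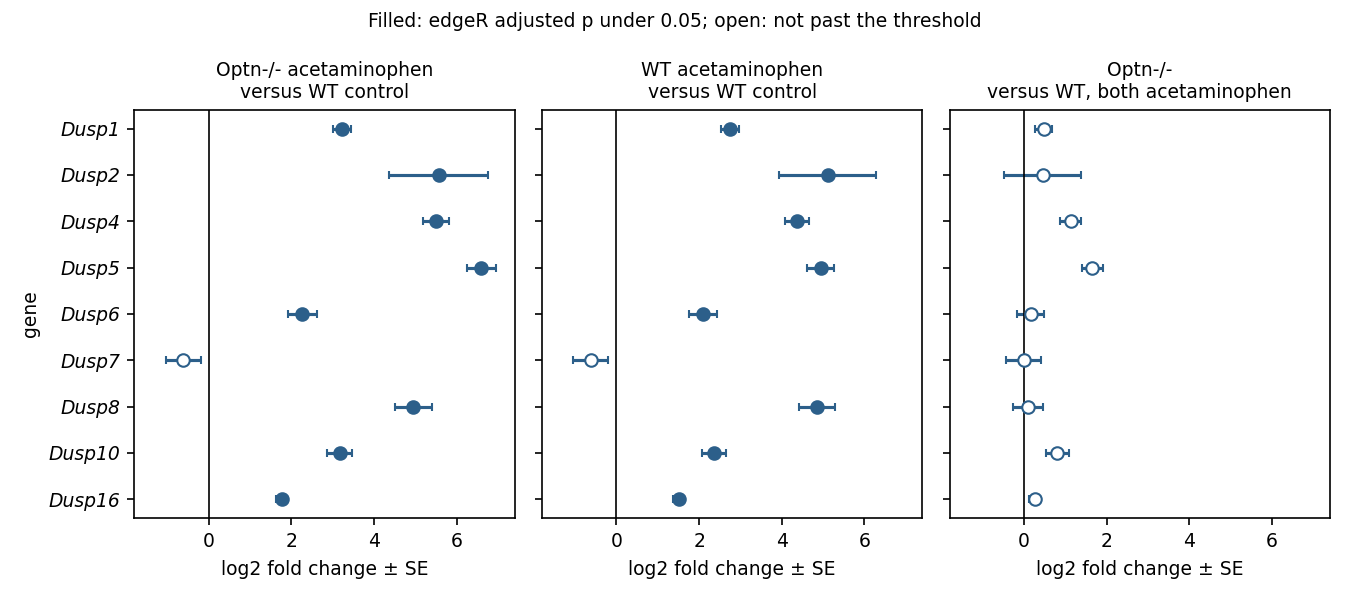
Log2 fold change of each member with its SE from the edgeR fit in Optn-/- acetaminophen against WT control livers, WT acetaminophen against WT control livers, and Optn-/- against WT livers after acetaminophen. Filled points passed the adjusted p threshold of 0.05. In both panels against controls, 8 members are filled and Dusp7 lies at -0.62. In the right panel no point is filled, and Dusp5 lies highest at 1.66.

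Optn-/- and WT livers, both given acetaminophen, were compared next. Without Optn-/- controls, a difference present before treatment cannot be told apart from one in the response. Genotype also coincides with library set here. No member passed the edgeR test, where 0.103% of the genes tested did (12 of 11677; 0.0514% rose and 0.0514% fell). At an unadjusted p under 0.05 stood 3 members, Dusp4, Dusp5 and Dusp10, and 1024 of all genes tested (8.77%). The median log2 fold change over the 9 was 0.45, against -0.00058 over all genes tested. The limma alternatives called 0 members, and DESeq2 called 2, Dusp4 and Dusp5, among 287 genes in all.

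Dusp5 had the largest difference of the members between genotypes. Both Optn-/- livers (12.5 and 13.1 FPKM) lay above both WT acetaminophen livers (3.04 and 4.93 FPKM), with a log2 difference of 1.66 ± 0.26 (SE, edgeR adjusted p = 0.214). DESeq2 gave an adjusted p of 7.49e-06 for the same counts, and edgeR without the filter on low values gave 0.0370. Dusp4 followed at 1.13 ± 0.25 (edgeR adjusted p = 0.370, DESeq2 adjusted p = 0.0118), with Optn-/- livers at 6.06 and 6.18 FPKM and WT acetaminophen livers at 3.29 and 2.16 FPKM. Smaller differences were those of Dusp10, at 0.80 ± 0.28 on the log2 scale (edgeR adjusted p = 0.522), and Dusp1, at 0.47 ± 0.20 (edgeR adjusted p = 0.582).

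Markers of several cell types also lay higher in Optn-/- than in WT livers after acetaminophen, although no gene of these lists passed the edgeR test. Positive log2 fold changes between genotypes were found for 8 of 8 neutrophil markers tested (median 0.82), 6 of 6 monocyte (0.93), 8 of 8 Kupffer cell (0.48), 8 of 8 stellate cell (0.59), 4 of 4 platelet (0.82) and 4 of 4 cholangiocyte markers (1.49). Sinusoidal endothelial cell markers were positive for 7 of 8 tested (median 0.29), and hepatocyte markers for 2 of 12, with a median of -0.24. Over the lists, summed Kupffer cell markers were at 488.1 and 333.7 CPM in Optn-/- livers against 300.8 and 259.1 CPM in WT acetaminophen livers. WT controls had 119.8 CPM of them in replicate 3 and 325.7 CPM in replicate 6, so the controls of the 2 sets were themselves far apart. Stellate cell markers were at 303.8 and 357.9 against 227.1 and 179.8 CPM, and cholangiocyte markers at 102.8 and 137.4 against 94.5 and 59.2 CPM. Both Optn-/- libraries lay in the set with intestine traces, so genotype and library set cannot be told apart for these markers. The part of intestine traces in the cholangiocyte markers was not tested. Nor was the part of these cells in the differences of Dusp5 and Dusp4.

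The remaining 5 members were closer to 0. For Dusp16 the log2 fold change between genotypes was 0.26 ± 0.13, for Dusp6 0.16 ± 0.33 and for Dusp8 0.09 ± 0.37. Dusp7 gave -0.0017 ± 0.42, and its values overlapped between the genotypes. The values of Dusp2 also overlapped (0.45 ± 0.94), and the sign turned with the library left out: its log2 fold change was 2.84 without WT acetaminophen replicate 1 and -0.40 without WT acetaminophen replicate 4.

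Genotype and library set cannot be told apart in this comparison, since both Optn-/- livers came from the set with intestine traces and both WT acetaminophen livers from the set with muscle traces. Set beside the control of their own set, Optn-/- livers had log2 differences of 6.37 and 6.39 for Dusp5 from WT control replicate 6, and WT acetaminophen livers 4.91 and 5.54 from WT control replicate 3. For Dusp4 the corresponding log2 differences were 5.52 and 5.5 in Optn-/- livers and 4.66 and 4.0 in WT acetaminophen livers. No set holds treated livers of both genotypes, so these are differences from 1 control each. With the set as a term in the fit, the log2 fold change between genotypes was 1.12 ± 0.53 for Dusp5 and 1.14 ± 0.54 for Dusp4, both with an edgeR adjusted p of 1.0. That fit has 2 residual degrees of freedom, and its set term rests on the difference between the 2 controls. The same term moved Dusp6 to 1.21 ± 0.26 and Dusp8 to 1.42 ± 0.33 (edgeR adjusted p = 0.567 and 0.641). With Dusp2 (1.20), these members had the largest log2 differences between WT control replicates 6 and 3, -1.05 for Dusp6 and -1.33 for Dusp8.

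**Figure D3:**
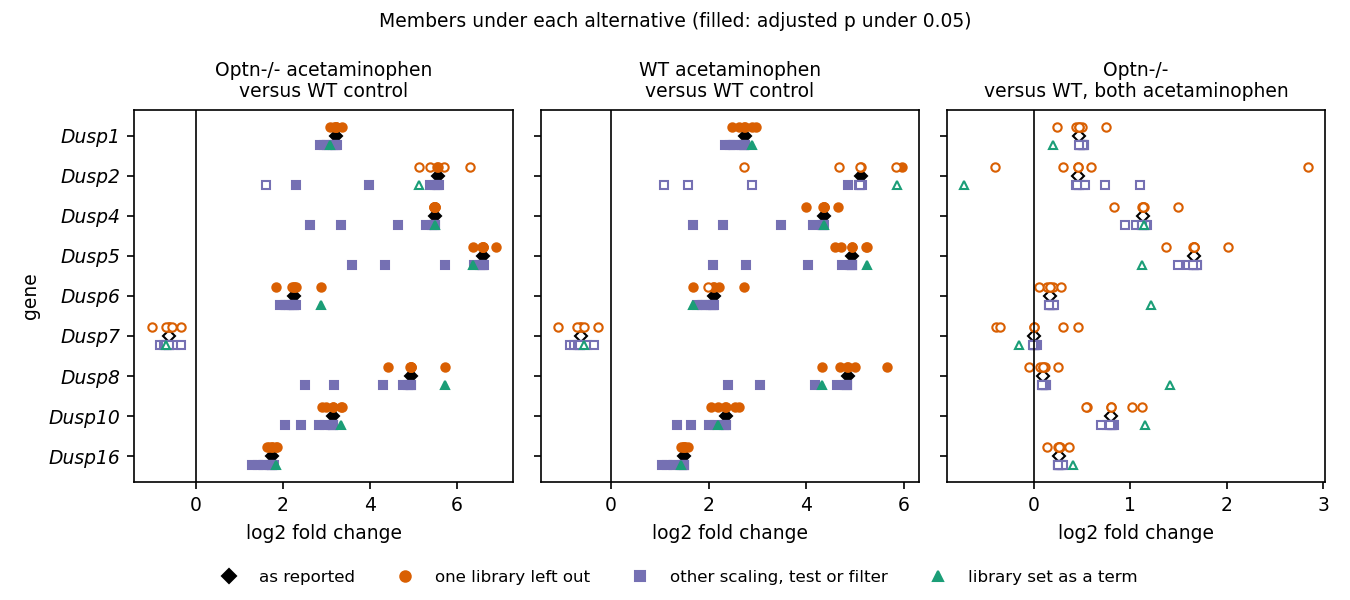
Log2 fold change of each member as reported (black diamonds), with 1 library left out (circles), with another scaling, test or filter (squares) and with library set in the fit (triangles), in the same 3 comparisons. Filled symbols passed the adjusted p threshold of 0.05. Against controls the 7 members other than Dusp2 and Dusp7 stay to the right of 0 and are filled, except for 1 setting of Dusp6 in each panel, and between genotypes Dusp2 spreads from -0.72 to 2.84.

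Treated Optn-/- livers were also set against WT controls, a comparison in which genotype and treatment differ together. Of the 9 members, 8 rose, where 12.2% of the genes tested rose, 8.05% fell and 20.3% changed in either direction. The median log2 fold change was 3.22 over the members against -0.0018 over all genes. Dusp2, Dusp4, Dusp5 and Dusp8, low in controls, again passed the filter through the treated groups. Their rise is in part built into it, so the count over the members is a description. This comparison uses the same 2 control livers as the one within WT, so the members' values are given side by side and are not independent. The rise of Dusp5 was 97.0-fold in treated Optn-/- livers and 30.8-fold in treated WT livers, both over WT controls. Dusp4 was 45.1-fold higher in Optn-/- and 20.6-fold in WT livers, Dusp8 30.9-fold and 29.0-fold, Dusp1 9.31-fold and 6.71-fold, and Dusp10 8.96-fold and 5.14-fold. For Dusp6 the folds were 4.81 and 4.3, and for Dusp16 3.39 and 2.83.

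The log2 fold changes in treated Optn-/- livers over WT controls were 6.60 ± 0.34 for Dusp5 (edgeR adjusted p = 0.000878), 5.49 ± 0.31 for Dusp4 (0.000924) and 4.95 ± 0.44 for Dusp8 (0.00257). Dusp2 rose by 5.57 ± 1.19 on the log2 scale (edgeR adjusted p = 0.0260), a call lost in 6 of 15 alternatives. Dusp6 rose by 2.27 ± 0.34 on the log2 scale (edgeR adjusted p = 0.00969), a call lost without Optn-/- replicate 5 (log2 fold change 2.22, adjusted p = 0.0617). Its log2 fold change was 2.88 without WT control replicate 3 and 1.83 without WT control replicate 6, and that of Dusp8 was 5.74 and 4.42 in the same settings. Dusp7 again did not pass the test (-0.62 ± 0.42, edgeR adjusted p = 0.343).

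The other genes of the pathway were read against the 8.36% of all genes tested that rose in treated WT livers. Of 9 MAP kinases tested, 1 rose, a share near that background: Mapk6, an atypical kinase, at 7.35 and 8.82 FPKM in WT acetaminophen livers against 3.48 and 3.79 FPKM in WT controls (log2 fold change 1.36 ± 0.18, edgeR adjusted p = 0.00965). Mapk8, which encodes a JNK, did not pass, at 0.40 ± 0.19 on the log2 scale (edgeR adjusted p = 0.211). The median over the 9 was -0.00090. Among 7 MAP kinase kinases, Map2k4, which activates JNK, rose (0.61 ± 0.13, edgeR adjusted p = 0.0323), and Map2k3, which activates p38, fell (-0.91 ± 0.13, edgeR adjusted p = 0.0118).

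Further upstream, 6 of 19 MAP kinase kinase kinases rose and none fell. Of these 6, Map3k6, Map3k8 and Map3k14 averaged under 0.5 FPKM in controls and entered the test through the treated livers, as did Rps6ka3, Dusp14 and 5 of the 18 immediate early factors below, so their rise is in part built into the filter. Map3k8, which drives ERK activation downstream of innate immune receptors, had 1.92 and 1.14 FPKM in WT acetaminophen livers against 0.123 and 0.174 FPKM in WT controls (log2 fold change 3.55 ± 0.37, edgeR adjusted p = 0.00504). Map3k6, a relative of the stress kinase Map3k5, rose by 2.81 ± 0.28 on the log2 scale (edgeR adjusted p = 0.00482). Of 10 scaffold genes 2 rose, Tab2 (1.19 ± 0.11) and Spag9 (0.71 ± 0.15), the products of which bind the kinase Map3k7 and JNK. Downstream, 3 of 8 kinases activated by MAP kinases rose, among them Mapkapk2, a p38 target, by 1.58 ± 0.14 (edgeR adjusted p = 0.00336) and Rps6ka3, an ERK target, by 2.53 ± 0.32 (edgeR adjusted p = 0.00883).

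Other brakes on the pathway rose in part. Of 8 other ERK pathway inhibitors tested, 4 rose and none fell, with Errfi1, an inhibitor of EGF receptor signalling, at 0.84 ± 0.17 and Spred1, an inhibitor of Ras signalling, at 1.88 ± 0.40 on the log2 scale (edgeR adjusted p = 0.0268 and 0.0315). Among 6 other phosphatases that act on MAP kinases, Ppp2cb, a catalytic subunit of protein phosphatase 2A, rose (0.90 ± 0.16, edgeR adjusted p = 0.0194). Dusp9, not among the members, was on this list, and it was under the filter on low values and not tested. The atypical dual-specificity phosphatases, which lack the MAP kinase binding domain, had a median log2 fold change of -0.43 over 9 tested genes. Of them 1 rose, Dusp14 (1.93 ± 0.40, edgeR adjusted p = 0.0307). The counts for all 9 lists changed across the alternatives. In some alternatives none of the other ERK pathway inhibitors passed, and in some none of the other phosphatases. Dusp14, Ppp2cb, Map2k4 and Map2k3 did not pass in all alternatives. The immediate early transcription factors had the highest median of the 9 lists: 18 of 20 rose, with a median log2 fold change of 4.81 (4.22 with Fosl1, at 0 in both controls, set to its bound against 3 counts per library), and Atf3 and Egr1 each rose by 7.80 (SE 0.19 and 0.21, edgeR adjusted p = 0.000192).

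**Figure D4:**
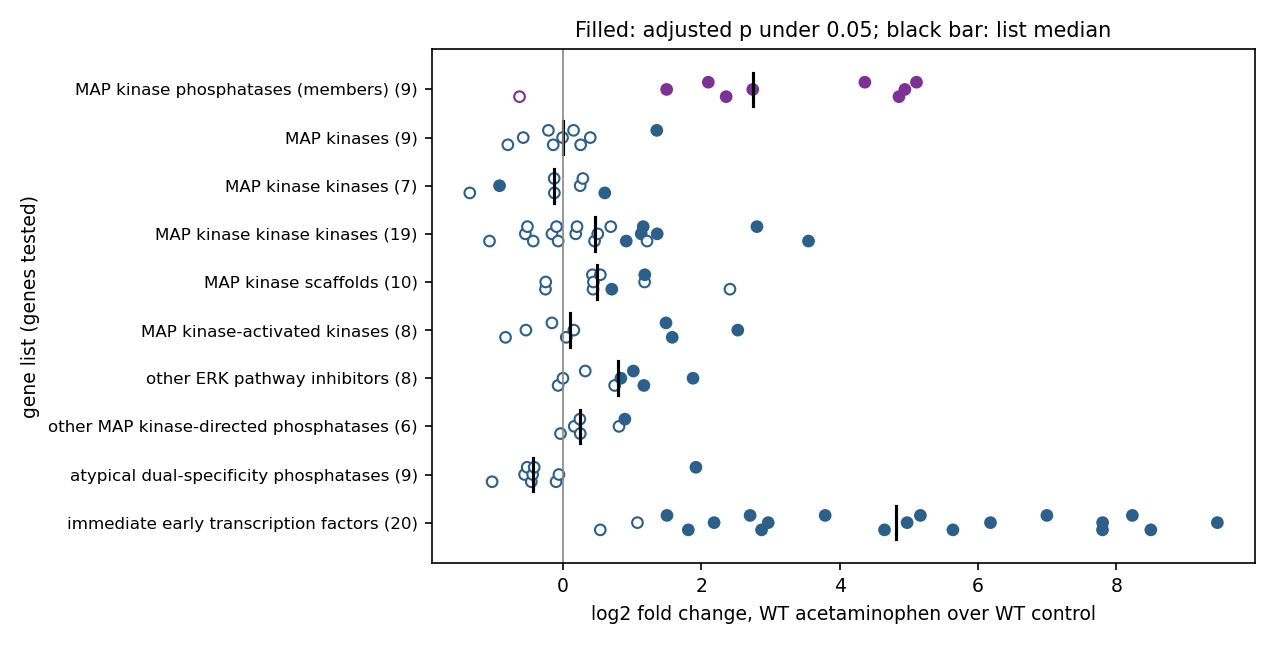
Log2 fold change of WT acetaminophen over WT control livers for the 9 members (top) and for each gene tested in 9 lists of the MAP kinase pathway. Filled points passed the adjusted p threshold of 0.05, and black bars are list medians. The medians are 2.75 for the members, 4.81 for the immediate early factors and between -0.43 and 0.80 for the other 8 lists.

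In treated Optn-/- livers over WT controls, the counts for these lists were close to those in WT. MAP kinase kinase kinases had 7 genes that rose and 1 that fell of 19, the other ERK pathway inhibitors 5 that rose of 8, and the immediate early factors 18 that rose of 20. Spry4 and Spry1, inhibitors of receptor tyrosine kinase signalling, were among those that rose (log2 fold changes 1.67 ± 0.23 and 1.42 ± 0.24, edgeR adjusted p = 0.00740 and 0.0134). Map2k6, a p38 activator, fell by 2.03 on the log2 scale (SE 0.36, edgeR adjusted p = 0.0149). Map3k6, Map3k8, Map3k14 and 5 of these 18 immediate early factors again averaged under 0.5 FPKM in controls. Their rise is in part built into the filter. Between the genotypes after acetaminophen, no gene of the 9 lists passed the edgeR test.

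For each member the genes with the most similar profile were sought among 3950 genes with a mean of at least 5 FPKM, by the root mean square distance between centred log2 CPM values over the 6 libraries. The smallest distance was that of Dusp16 to Mapkapk2 (0.0591). Mapkapk2 had 39.2 and 48.9 FPKM in Optn-/- acetaminophen livers, 34.6 and 37.8 FPKM in WT acetaminophen livers and 13.9 and 14.1 FPKM in WT controls. Dusp5 lay nearest to Ccn1 (0.358), which encodes a matrix-associated signalling protein. Like Dusp5, Ccn1 was highest in Optn-/- acetaminophen livers, at 97.7 and 134.7 FPKM, against 33.7 and 39.7 FPKM in WT acetaminophen livers and 2.31 and 1.55 FPKM in WT controls (log2 fold change between genotypes 1.63 ± 0.24, edgeR adjusted p = 0.204). Dusp2 lay nearest to Rcan1 (0.416), a calcineurin regulator, and to the haemoglobin gene Hba-a1 (0.478), which had 2602 and 2635 FPKM in Optn-/- livers, 3133 and 1168 FPKM in WT acetaminophen livers and 187.2 and 317.4 FPKM in WT controls.

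The other members had Eppk1 and Actg1 (Dusp1, distances 0.167 and 0.193), Tnfrsf12a and Ccl5 (Dusp4, 0.325 and 0.337), Arl4d and Pim1 (Dusp6, 0.176 and 0.201), Zmiz2 and Rarres1 (Dusp7, 0.115 and 0.116), Chka and Ifrd1 (Dusp8, 0.290 and 0.325), and Id3 and Tubb2a (Dusp10, 0.220 and 0.223) as nearest genes. Second nearest to Dusp16 was Nt5dc3 (0.0979). The profiles share the same 6 libraries and the same contrast between treated and control livers, so these distances describe likeness alone. They are not scaled by the size of the change. Members that changed little therefore tend to have small distances, and the distances do not rank matches across members.

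The genes lie apart in the genome, each on a chromosome of its own (GRCm38): Dusp1 at chr17:26505590-26562128, Dusp2 at chr2:127336159-127338376, Dusp4 at chr8:34807297-34819894, Dusp5 at chr19:53529109-53542431, Dusp6 at chr10:99263231-99267489, Dusp7 at chr9:106368632-106375724, Dusp8 at chr7:142079490-142095843, Dusp10 at chr1:184013302-184075636 and Dusp16 at chr6:134715468-134792625. Whether counting used strand is not given in the sources used here, so reads from overlapping genes on the other strand may be shared. Dusp1 overlaps Ergic1 by 640 bases on the opposite strand. Ergic1 had counts of 4176 and 3008 in Optn-/- acetaminophen livers, 3382 and 3983 in WT acetaminophen livers and 3761 and 5488 in WT controls. These counts are not scaled for depth, and those of treated and control livers overlapped. The part of shared reads in the counts of Dusp1 was not tested. Gm8225, a pseudogene that overlaps Dusp1 by 956 bases on the opposite strand, had counts of 228 and 0 in Optn-/- acetaminophen livers, 16 and 20 in WT acetaminophen livers and 21 and 0 in WT controls, where Dusp1 had at least 1191 counts. The antisense gene that overlaps Dusp5 had at most 19 counts in any library, 1700056E22Rik, which overlaps Dusp10 by 1272 bases, had 19 to 55, and the partners of Dusp8 and Dusp16 had 0. No other gene overlaps Dusp2, Dusp4, Dusp6 or Dusp7 in that annotation.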

How the data were processed

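Whole-liver poly(A) RNA of 6 mice was sequenced as paired ends, per the labels' protocols, which call the RNA adipose although each tissue label says liver. Per the series' design text, replicates are individual mice. The authors deposited, per the file headers, whole-number counts per gene and FPKM. Of its 55385 genes, 28158 had a count of 0 in all libraries. Per the submitters' processing notes, Bowtie 0.12.2 and build mm8 were used; the deposited coordinates equal those of GENCODE M21 (GRCm38) for 94.3% of shared genes, so GRCm38 is given. The counter is not given in the sources used here.

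Counts were fitted with edgeR 4.0.16 (R 4.3.3; TMM scaling, quasi-likelihood test, 3 group means, all 6 libraries, 3 residual degrees of freedom) for 11677 genes with a mean of at least 0.5 FPKM, and p-values were Benjamini-Hochberg adjusted over these. With 2 mice a group the smallest exact permutation p is 0.333, so none was used. DESeq2 1.42.0 and limma 3.58.1 on log2(FPKM + 0.5) were alternatives. The code of the fit was also run on simulated counts, which does not test the calls in these libraries. Replicates differed beyond sampling noise (mean chi-square per gene 77.7 to 185.1). Of 263 symbols in the lists, 262 matched, 1 by a synonym. The members, lists and tests were chosen with earlier results of these data known. Named were all members, up to 2 genes per list with the smallest p among those that passed, the 2 nearest profiles per member, Optn and marker lists (1 nearest profile is not reported here); Mapk8 and overlapping genes were chosen after their values were seen. Promoters are from RefSeq.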

Additional observations from a re-analysis of the deposited data

How the results depend on the processing

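Between treated and control livers no member changed sign in any alternative. Within WT, the member-by-alternative checks kept direction and side of the threshold in 128 cases and lost the call in 11, 10 of them Dusp2. In treated Optn-/- livers over WT controls they were kept in 132 and lost in 7. The number of members that passed was 8 in both, 6 to 8 with 1 library left out, 7 with library set added to the fit, and 4 with a filter at a mean of 5 FPKM, under which Dusp1, Dusp5, Dusp6 and Dusp16 alone were tested. Between genotypes the number was 0, 0 with each library left out, 2 with DESeq2 and 1 (Dusp5) with no filter. Signs that turned there were those of members near 0 or uneven. Dusp2 gave -0.72 with library set in the fit and -0.40 to 2.84 with 1 library left out, and Dusp8 -0.055 to 0.25 with 1 library left out, both lowest without WT acetaminophen replicate 4. Dusp7, at -0.0017 as reported, gave 0.0038 with DESeq2 size factors in edgeR, 0.017 with total count scaling, 0.0040 with DESeq2, 0.013, 0.030 and 0.0075 with limma at pseudocounts of 0.5, 0.1 and 1, 0.0031 with no filter, 0.31 without Optn-/- replicate 5 and 0.46 without WT acetaminophen replicate 4 (range -0.40 to 0.46 with 1 library left out). The cause was not tested.

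Scaling by total count moved the median log2 fold change of all genes to -0.19 in WT (0.03 with TMM) and the split of genes that rose and fell to 724 and 1497, against 976 and 691 with TMM. In Optn-/- over controls the median moved to -0.19 and the split to 1137 and 1768, against 1426 and 940. No member's call changed under it. On the log2(FPKM + pseudocount) scale of limma, which understates the change of low genes by construction, the rises in WT were smaller, down to 2.10 for Dusp5, 1.68 for Dusp4 and 2.40 for Dusp8 at a pseudocount of 1, and all 3 calls held. The number of genes called of all tested between genotypes was 12 with edgeR and 287 with DESeq2. For the pathway lists, 56 of 144 counts within WT and 40 of 144 in Optn-/- over controls moved by over 1.5 times. In treated Optn-/- and in treated WT livers, the genes that passed over all alternatives were 1 to 9 and 1 to 9 for MAP kinase kinase kinases (8 and 6 as reported), 0 to 5 and 0 to 5 for other ERK pathway inhibitors (5 and 4), and 12 to 20 and 12 to 19 for immediate early factors (18 and 18). No paired analysis was possible because the groups share at most 1 replicate number, 4, between Optn-/- and WT acetaminophen mice. With 2 mice a group, and control counts of 4 and 12 for Dusp2, precision is limited by the mice and, for Dusp2, by depth.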
